A study of Mus musculus with 16 samples.

Results

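Mouse fibroblasts after 12 days of chemical reprogramming (D12) were set against the fibroblasts they came from (D0), to describe how much CpG methylation the cells lost in all and where. D12 cells are labelled reprogramming intermediates. They were made by moving mouse embryonic fibroblasts (MEFs) of passages 1-3 into reprogramming medium, which was changed every 2 days, and every day between days 4 and 8. D0 cells are the MEFs themselves, kept in serum medium. Both groups carry the same genetic background, 129 crossed with OG2 and taken from E13.5 embryos; OG2 mice carry a reporter of the pluripotency factor Oct4. The labels do not say that D12 cells were sorted, so a level at D12 is a mean over all cells in the dish. Each group has 2 libraries, or 4 of the 16 in the series. Cell identity could not be checked against marker genes, since these are methylation tables and gene positions were not analysed here.

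Sites entered by coverage alone. Of the 2822709 autosomal sites listed in any of the 4 libraries (a site is 1 strand of a CpG), 1498470, or 53.1%, had at least 10 reads in all 4. That is 1.75 times the 857278 autosomal sites covered in all 16 libraries. They fell into 140684 tiles of 1 kb with at least 3 sites each, with a median of 8 sites and 6 CpGs. The sum of coverage over listed sites was 76775447 and 66643255 reads in the D12 libraries and 107834007 and 62225124 reads in the D0 libraries.

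Methylation of the cytosine in CpG is copied after DNA replication by Dnmt1, laid down anew by Dnmt3 enzymes and removed either by loss of that copying or by oxidation through Tet enzymes. In fibroblasts most of the genome is methylated, while CpG islands, the CpG-rich stretches at many gene starts, mostly are not. Low methylation genome-wide is known from primordial germ cells, the early embryo and embryonic stem cells held in inhibitors of MEK and GSK3. RRBS reads fragments between MspI cuts and so covers CpG-rich DNA more densely than the rest.

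Most of the methylation of the starting fibroblasts was gone at D12, and it was gone nearly everywhere that had been methylated. The mean level over sites was 21.9% and 21.7% in the D12 libraries, against 52.0% and 52.1% in the D0 libraries. The replicates lay close together and the groups far apart. The difference was -30.3 points ± 0.156 (SE, n = 2 each), and D12 kept 41.9% of the D0 mean. An exact two-sided permutation test gave p = 0.333, and 4 libraries cannot give a smaller value. The fall depended on which sites were counted. With at least 50 reads per site, the levels were 14.9% at D12 and 57.0% at D0, so that 26.1% was kept. Over all sites that each library lists, they were 27.2% at D12 and 54.4% at D0, and 49.9% was kept.

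Fully methylated sites all but disappeared. Sites at 80% or more made up 0.929% and 0.837% of sites in the D12 libraries and 38.5% and 38.6% in the D0 libraries. Sites under 20% made up 54.1% and 54.4% of sites at D12, against 34.0% and 33.4% at D0. The loss did not leave most sites empty. Sites between 20% and 80% were 45.0% and 44.8% of sites at D12, against 27.5% and 28.0% at D0. Sites with no methylated read were 13.3% and 13.1% at D12, against 8.24% and 10.9% at D0.

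The tiles showed the same shape. Their median level was 19.2% at D12, with the 5th and 95th percentiles at 5.18% and 46.3%. At D0 the median was 66.5%, with the same percentiles at 6.92% and 88.4%. The D0 distribution had a low and a high group of tiles, whereas at D12 a single broad hump stood between 5% and 30%.

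**Figure D1:**
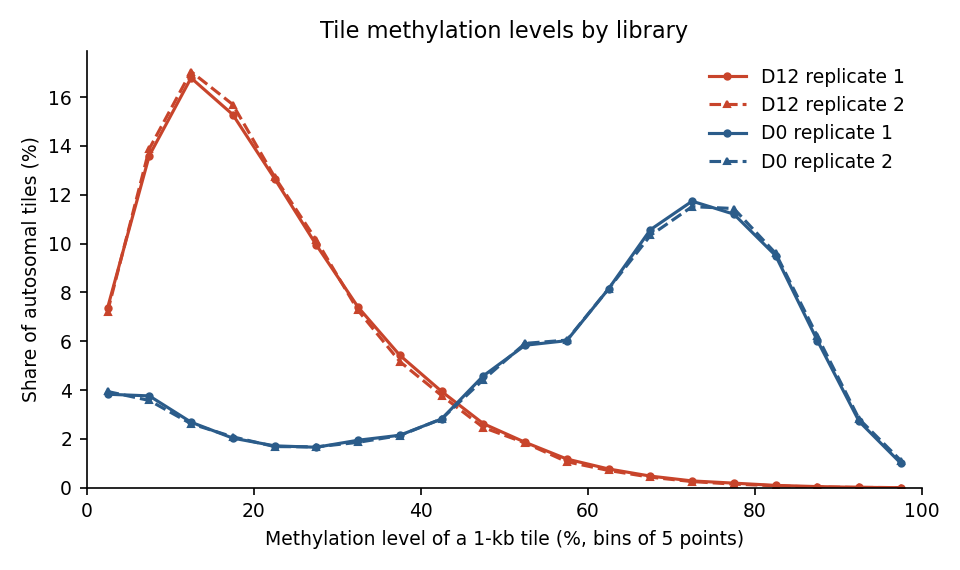
Share of the 140684 autosomal 1-kb tiles (%, vertical axis) by methylation level (%, horizontal axis, bins of 5 points), 1 line per library, D12 in red and D0 in blue. The D12 lines rise and fall around a median of 19.2%, and the D0 lines have a low shoulder and a main hump around a median of 66.5%.

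By edgeR's quasi-likelihood test, 110450 of 140684 tiles (78.5%) were lower at D12 at a Benjamini-Hochberg adjusted p under 0.05 and a difference of at least 10 points, and 1824 (1.3%) were higher. The other 28410 tiles were not called. The median difference over all tiles was -42.6 points, and 47731 tiles (33.9%) were called with a fall of at least 50 points. Both D12 libraries lay below both D0 libraries in 120526 tiles (85.7%) and above both in 6206 (4.41%). Of the tiles not called, 53.6% had stood under 20% at D0 and so had less than 20 points to lose.

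D12 cells were less reproducible tile by tile than fibroblasts. Across the 140684 tiles, Pearson's r between replicates was 0.636 at D12 and 0.966 at D0, given as a description, since tiles of a library are not replicates. The mean absolute difference between replicates was 8.60 points at D12 and 4.52 points at D0. A smaller range of levels also lowers r, and the D12 range was smaller. Median reads per tile were 259 and 231 at D12 and 369 and 229 at D0. The part of read depth in these differences was not tested, and the spread may be technical.

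The 5 largest falls among called tiles with at least 5 sites all ran close to the full scale. Tile chr11:117896001-117897000 (GRCm39 here and below) stood at 2.53% and 5.97% in the D12 libraries and at 97.1% and 98.9% in the D0 libraries. Tile chr3:97140001-97141000 stood at 1.22% and 0.613% at D12, against 94.1% and 94.4% at D0. Tile chr14:47540001-47541000 was the deepest of them, with 456 to 596 reads per library over 12 sites, at 2.72% and 1.97% at D12 and 94.3% and 92.9% at D0. The remaining 2, chr5:112534001-112535000 and chr19:43494001-43495000, fell by 92.4 and 92.3 points. All 5 had adjusted p values of 0.00092 or less, held 5 to 10 listed CpGs and lay 5 to 101 kb from the nearest CpG-rich tile.

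Between the start and D12, and afterwards, these 5 tiles differed in level, but replicates of 1 tile could also lie far apart. The chr3 tile stood at 70.1% and 16.7% in the D8 libraries, on 107 and 66 reads. The chr14 tile still had 92.0% and 78.9% at D6, stood at 53.4% and 44.4% at D8 and at 8.86% and 21.4% at D10. The chr11 tile had 70.9% and 67.6% at D6, 5.71% and 21.3% at D8, and 0.0% in both D10 libraries. In induced pluripotent stem cells (iPSCs), a separate group of the series, the chr3 tile was methylated again at 80.9% and 76.3%. Tile chr19:43494001-43495000 was at 8.96% and 15.7% there, and the chr11 tile at 21.2% and 50.0%. These values describe tiles picked for their fall between D0 and D12, and the other groups were not tested here.

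The share a tile kept was 32 to 36.1% in the classes above 40% at D0 and larger below that level, and this difference was smaller with at least 50 reads per site. Tiles at 80% or more at D0 averaged 31.0% ± 0.137 at D12 and 85.9% ± 0.159 at D0 (SD, n = 2 each), so 36.1% was kept. Tiles at 60 to 80% averaged 22.6% ± 0.310 at D12 against 70.7% ± 0.139 at D0, and kept 32%. Tiles at 40 to 60% averaged 17.8% ± 0.357 at D12 against 51.5% ± 0.154 at D0, and kept 34.5%. Tiles at 20 to 40% averaged 17.8% ± 0.157 at D12 against 30.5% ± 0.252 at D0, and kept 58.3%. With at least 20 reads per site this class kept 41.2%, and with 50 reads 26.2%, against 31.3% and 26.4% in tiles at 80% or more. At 40 to 60 and 60 to 80%, the shares kept were 27.8 and 26.1% with 20 reads, and 21 and 21.2% with 50. The share of tiles called lower was 97.9, 94.0, 84.7 and 49.6% in these 4 classes, in the same order. The classes were cut from the D0 levels of this contrast, so these values are a description with no test.

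At the low end the direction turned. The 17378 tiles under 20% at D0 averaged 12.3% ± 0.0608 at D12 and 9.0% ± 0.00312 at D0, 3.26 points more at D12. Of them, 9.25% were called higher and 3.07% lower. That difference went with read depth: in tiles built from sites with at least 50 reads, the class kept 89.7% of its D0 level, so D12 stood lower than D0.

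**Figure D2:**
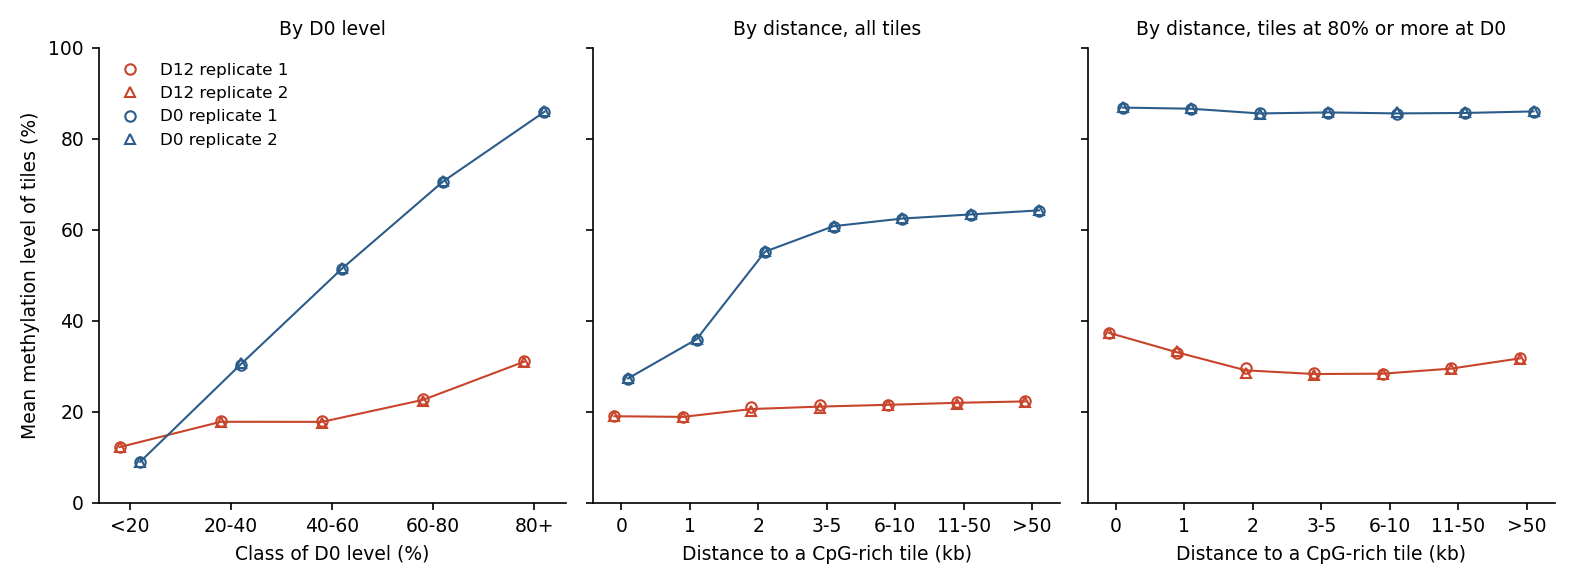
Mean methylation level of tiles (%, vertical axes) by class of D0 level and by distance to the nearest CpG-rich tile (kb), for all tiles and for tiles at 80% or more at D0. Points are libraries, D12 in red and D0 in blue, and lines join group means. D12 levels stay between 18.9% and 22.3% across all distances while D0 levels range from 27.3% to 64.3%, and among highly methylated tiles D12 is highest, at 37.4%, in the CpG-rich tiles themselves.

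A few tiles kept their methylation. Of the 26620 tiles at 80% or more at D0, 1337 (5.02%) were at 50% or more in both D12 libraries, 419 (1.57%) at 60% or more and 17 (0.0639%) at 80% or more. At the other extreme 3899 (14.6%) were under 20% in both D12 libraries. The 419 that kept most had a median of 69.4% at D12 and 90.8% at D0, and 9.31% of them were CpG-rich, compared with 5.49% of all 26620. They also had fewer reads, a median of 20.1 per site against 34.0 in all 26620, while the 3899 that lost most had 47.3. Membership of both groups uses the D12 values, so nothing is read from these contrasts beyond their size.

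The highest D12 level among tiles with at least 5 sites was in chr11:19970001-19971000, a CpG-rich tile with 21 listed CpGs. It stood at 88.2% and 96.5% in the D12 libraries and 98.6% and 96.8% in the D0 libraries, on 200 to 1043 reads. It was also high on the way, at 93.7% and 93.5% in the D10 libraries and 99% and 92.3% in the D8 libraries, and was at 73.0% and 90.0% in iPSCs. The other 4, on chromosomes 4, 2, 1 and 15, averaged 87.5 to 89.5% at D12 and 86.8 to 93.2% at D0, on 50 to 102 reads per library. None of the 5 passed the test, with adjusted p between 0.074 and 0.814, which at this depth does not show that they lost nothing.

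CpG-rich tiles, those holding 20 or more CpGs listed in any of the 16 libraries, had started low and lost the least in points. The 11442 CpG-rich tiles averaged 19% ± 0.0259 at D12 and 27.3% ± 0.166 at D0, and kept 69.6%. Tiles 1 kb away averaged 18.9% ± 0.117 at D12 and 35.9% ± 0.167 at D0, and kept 52.5%. Tiles 2 kb away averaged 20.6% ± 0.583 at D12 and 55.2% ± 0.0934 at D0, and kept 37.3%. From 3 kb outwards the share kept lay between 34.5% and 34.8%, up to tiles over 50 kb away, which averaged 22.3% ± 0.246 at D12 and 64.3% ± 0.150 at D0. The rise of methylation away from CpG-rich DNA that marks the fibroblasts was thus nearly flat at D12: tiles over 50 kb away stood 3.45 and 3.07 points above CpG-rich tiles in the D12 libraries and 36.9 points above them in both D0 libraries. That difference changed by -33.7 points ± 0.193 (SE), with an exact two-sided permutation p of 0.333, adjusted 0.333 over the 6 distances, the smallest possible.

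With the start level held high, CpG-rich tiles still kept more. Among tiles at 80% or more at D0, the 1461 CpG-rich ones averaged 37.4% ± 0.0946 at D12 and 86.9% ± 0.0890 at D0, and kept 43.0%. The share kept fell to 38.2% at 1 kb, 34.0% at 2 kb and 33% at 3 to 5 kb, and was 36.9% in tiles over 50 kb away. Both D12 libraries ran in this order from 0 to 5 kb. Counted by CpGs in the tile itself, the share kept was 31.9% ± 0.340 for 1 to 4 CpGs and 35.3% ± 0.168 for 5 to 9. It was 39.2% ± 0.020 where a tile held 10 to 19, and 43.0% ± 0.109 in CpG-rich tiles. Mean reads per site were 43.1, 43.0, 48.7 and 48.2 in these classes.

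The 1824 tiles called higher were mostly low, CpG-dense tiles. Their median level was 26.9% at D12 and 8.79% at D0. Of them 1607 (88.1%) had stood under 20% at D0 and 884 (48.5%) were CpG-rich, against 12.4% and 8.13% of all tiles. Their median was 19 listed CpGs, against 17 in all tiles under 20% at D0 and 6 in all tiles. Their CpG density was thus not told apart from their low start. Their sites had a median of 26.5 reads, against 34.7 over all tiles. With a minimum of 20 reads per site, 853 of 87394 tiles (0.976%) were called higher and with 50 reads 73 of 23797 (0.307%). Of the 1824 tiles, 1056 could be tested with 20 reads, and 707 of those were called higher. With 50 reads 122 of the 1824 could be tested, and 41 of those were called higher. Leaving out D12 replicate 1 or 2 gave 3142 or 3492 tiles called higher. Leaving out D0 replicate 1 or 2 gave 1487 or 1572, with 850 (46.6%) or 950 (52.1%) of the 1824 among them. At an unadjusted p under 0.05 with the same 10 points, 1989 tiles were higher.

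The 5 largest rises were partly carried by 1 library. Tile chr19:43430001-43431000 was the best supported, at 76.0% and 71.6% in the D12 libraries and 20.7% and 20.2% in the D0 libraries on 201 to 270 reads (adjusted p = 0.000829). It was not called with the strands of each CpG merged (adjusted p = 0.0804). In other groups its replicates could lie far apart, at 45.1% and 8.05% in the D8 libraries on 384 and 261 reads. In the D4 libraries they stood at 27.1% and 35.4%. Tile chr19:5779001-5780000 stood at 85.6% and 55.4% at D12, against 20.3% and 10.0% at D0 (adjusted p = 0.0137), and was not called without D0 replicate 2 (adjusted p = 0.0563). Tile chr18:9449001-9450000, with 34 listed CpGs, stood at 70.0% and 69.6% at D12 and at 20.0% and 0.0% at D0, on 50 to 60 reads. Tiles chr8:41693001-41694000 and chr8:14140001-14141000 rose by 53.2 and 52.2 points, with SDs of 7.83 and 16.5 points at D12 and 11.1 and 6.64 points at D0.

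The level at D12 moved with the number of reads at a site. This touches the results on start level, on distance to CpG-rich tiles, on tiles that kept methylation, on rises and on 1-Mb regions. Among sites at 80% or more in both D0 libraries, those with 10 to 14 reads averaged 37.1% ± 0.359 at D12 and those with 100 or more reads 22.7% ± 0.0366 (SD, n = 2). The D0 levels there, 94.7% ± 0.107 and 92.3% ± 0.0377, were held above 80% by the choice of sites and give no contrast. Among sites under 10% in both D0 libraries, sites with 10 to 14 reads averaged 13.0% ± 0.0877 at D12 and 2.09% ± 0.0932 at D0. With 100 or more reads they averaged 3.67% ± 0.518 at D12 and 4.04% ± 0.0572 at D0, so that no excess at D12 was seen. The D0 levels of these sites were also set by the choice, which at 10 to 14 reads leaves room for 1 methylated read at most, and the part of this choice in the D12 excess at few reads was not tested. The same gap appeared inside tiles: in 8440 tiles with highly methylated sites of both kinds, sites under 20 reads stood at 34.6% and 34.4% and sites with 40 or more at 24.9% in each D12 library. The gap between few and many reads at sites of low D0 level was also present at D4, with 11.5% ± 0.0873 and 4.16% ± 0.0670, and at D10, with 8.81% ± 0.383 and 2.64% ± 0.0829. Its source was not tested.

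**Figure D3:**
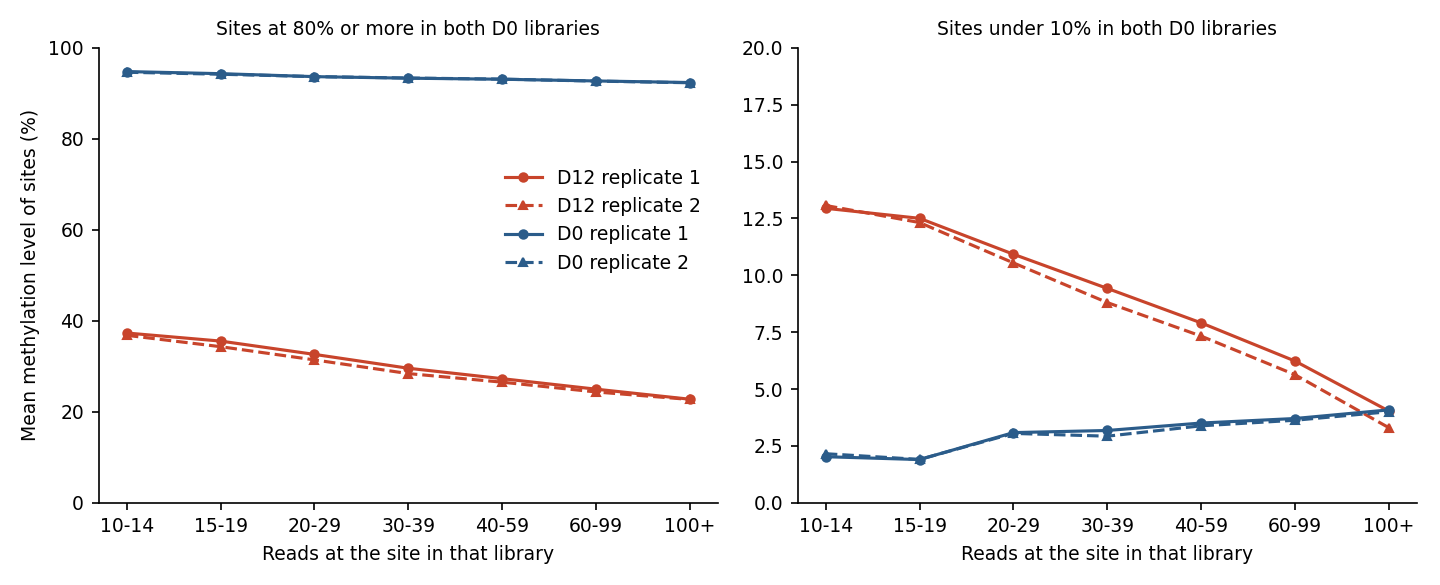
Mean methylation level of sites (%, vertical axes) by reads at the site in that library (horizontal axes), for sites at 80% or more (left) and under 10% (right, scale to 20%) in both D0 libraries. Lines are libraries, D12 in red and D0 in blue. D12 falls with depth, to 22.7% on the left and to 3.67% on the right, next to 4.04% at D0, and the D0 lines are bounded by the choice of sites.

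A second measured feature came from where a site lay in its cluster of listed CpGs, clusters being split at gaps over 300 bases. Sites at the 3′ ends of clusters (the last CpG of the forward strand and the first of the reverse strand) were low in both groups, at 14.6% ± 0.357 at D12 and 14.4% ± 0.212 at D0 (SD, n = 2 each). Sites at 5′ ends stood at 25.7% ± 0.176 at D12 and 77.4% ± 0.149 at D0. Over 120214 CpGs with 1 strand at a 3′ end, that strand was at 13.4% and 13.0% in the D12 libraries and 13.0% and 13.4% in the D0 libraries, while its partner was at 24.7% and 24.5% at D12 and 77.9% and 78.1% at D0. Across the 8 groups of the series the 3′ ends ranged from 10.6% to 16%. The protocol in the labels fills cut ends with dCTP. MspI sites were not looked up here and no source used here states how filled-in cytosines were handled, so the part of this step in the low level was not tested. These sites were 12% of all sites. Without them the levels were 22.8% ± 0.152 at D12 and 57.2% ± 0.121 at D0, and the difference grew to -34.4 points.

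**Figure D4:**
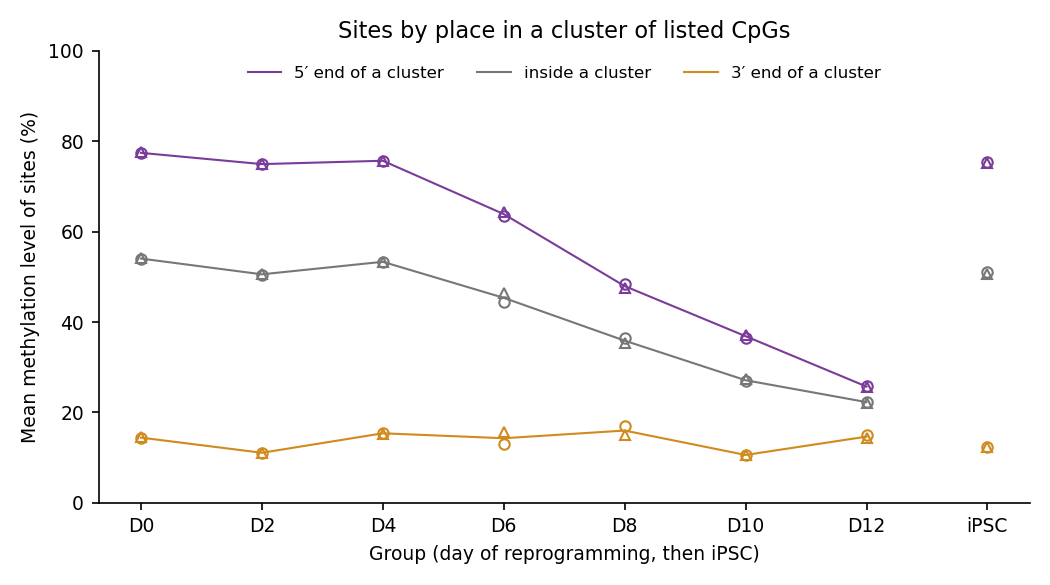
Mean methylation level (%, vertical axis) of sites at 5′ ends, inside and at 3′ ends of clusters of listed CpGs, by group. Circles and triangles are replicates 1 and 2, and lines join the means from D0 to D12. At 3′ ends the groups stay between 10.6% and 16%, while 5′ ends are at 77.4% at D0 and 25.7% at D12.

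The strands of a CpG show the same feature, mostly at D0. Over 506336 CpGs with both strands, strands lay 50 points or more apart in both libraries at 0.158% of CpGs at D12 and 19.6% at D0. With 3′ ends left out these shares were 0.0906% at D12 and 2.74% at D0. The r between strands was then 0.489 and 0.499 in the D12 libraries and 0.876 and 0.861 in the D0 libraries. With 3′ ends it was 0.418 and 0.425 at D12 and 0.496 and 0.488 at D0. It thus rose mostly at D0, and why it stayed lower at D12 was not tested. Leaving out 3′ ends also moved tiles between start classes, so that 58524 of 125569 tiles stood at 80% or more at D0. These averaged 27.7% ± 0.151 at D12 and 89.2% ± 0.152 at D0, and kept 31.1%. The order by distance held there, with 42.2% kept in CpG-rich tiles, 33.8% at 1 kb and 29.1% at 3 to 5 kb.

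On the scale of 1 Mb the loss reached each of the 2395 autosomal regions with at least 10 tiles: both D12 libraries lay below both D0 libraries in all 2395. The falls ranged from -15.8 to -55.6 points. The median region stood at 21.6% at D12 and 61.0% at D0. The share kept had a median of 36.1%, 5th and 95th percentiles of 29.6% and 42.6%, and a range of 20.0% to 55.0%. Its SD over regions was 3.9 points and the mean absolute difference between replicates 2.54 points, with an r of 0.706 between replicates over the 2395 regions. Part of the spread between regions was thus shared by the replicates, but it moved with the sites counted. The share kept had an r of 0.664 with its value at 20 or more reads per site, over 2262 regions. With its value at 50 or more reads the r was 0.386 over 991 regions, where the median share kept was 23.4%. The share kept had an r of 0.472 with the mean number of listed CpGs per tile and of -0.315 with the D0 level, over the same regions and libraries. The D0 level is also the divisor of the share kept, which can by itself make the second r negative.

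**Figure D5:**
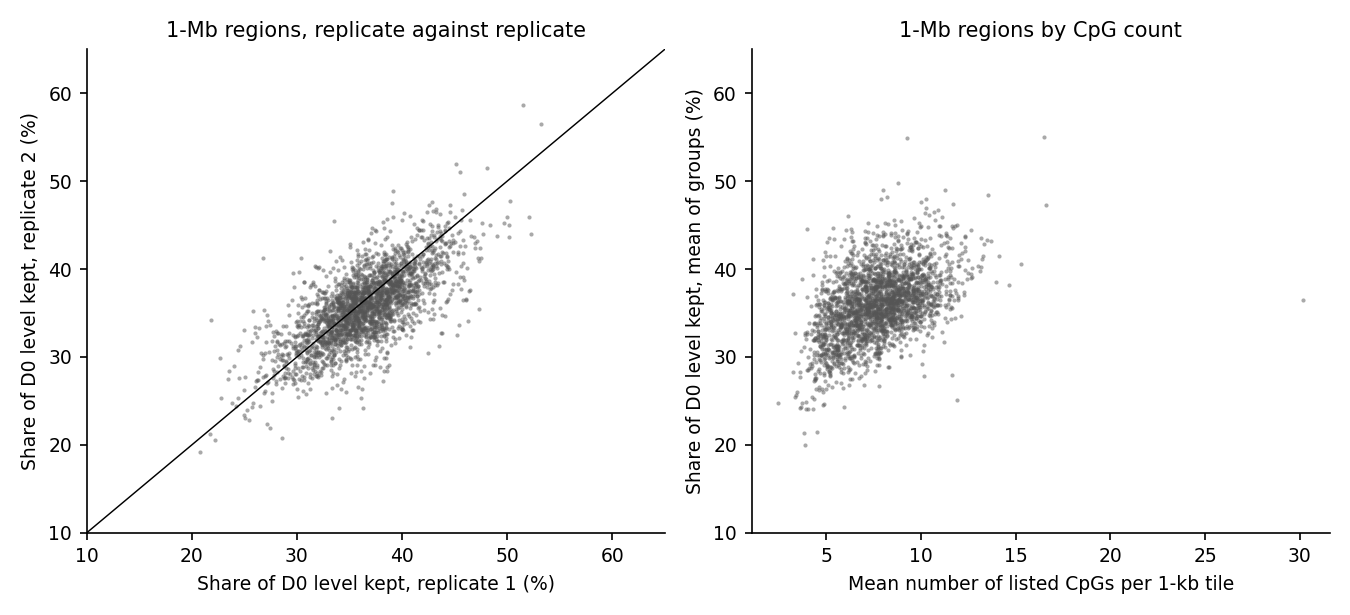
Share of the D0 level kept at D12 (%) in 2395 1-Mb regions, replicate 1 against replicate 2 on the left (line of equality drawn) and, on the right, the group value against the mean number of listed CpGs per tile. Replicates follow each other with an r of 0.706, and regions denser in CpGs kept more, with an r of 0.472.

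Relative to the pooled reads of the autosomes, 1107 regions (46.2%) lost more and 489 (20.4%) lost less by edgeR's quasi-likelihood test at an adjusted p under 0.05. Here more and less refer to the log odds of a region's summed reads, not to the share of the D0 level kept. The median relative change in log2 odds was -0.16. It was -0.07 without CpG-rich tiles, and -0.17 and -0.20 with at least 20 and 50 reads per site. Centred on the median region instead, 727 regions (30.4%) lost more and 772 (32.2%) lost less, and the 727 and the 489 kept their calls. Regions that lost more had a median D12 level of 22.0% against 64.7% at D0, and 6.68 listed CpGs per tile. Their median share kept was 34.4%. Regions that lost less had a median of 21% at D12 against 54.4% at D0, and 9.65 CpGs. Their median share kept was 38.7%. Without CpG-rich tiles 830 regions lost more and 487 less, and 18 regions changed side. With at least 50 reads per site 991 regions remained, and 51 changed side.

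The regions with the most positive relative change, among those with at least 20 tiles, show how much a few tiles weigh. Region chr16:57000001-58000000 had a change of 1.73 on the log2 odds scale (edgeR adjusted p = 5.83e-09), yet its tiles averaged 20.3% ± 0.620 at D12 and 66.7% ± 0.215 at D0 and kept 30.5%, less than the median region. A single tile held 86.0% of its reads and stood at 36.7% at D12 and 41.7% at D0. Without CpG-rich tiles its change was -0.61. Region chr13:120000001-121000000 averaged 22.1% ± 0.0685 at D12 and 50.8% ± 0.761 at D0, kept 43.5%, and had a change of 1.63, which was 0.16 without CpG-rich tiles and then not called (adjusted p = 0.120). Region chr17:40000001-41000000, with 30.2 listed CpGs per tile, kept 36.4% with a change of 1.62, and of -0.52 without CpG-rich tiles. This region had 1067 reads per site, against a mean of 44.5 over all tiles. A single tile held 38.2% of its reads and stood at 15.0% at D12 and 36.6% at D0. Without CpG-rich tiles, the first and the third of these regions were thus called as losing more (adjusted p = 0.000161 and 0.0143).

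The 3 most negative relative changes among regions with at least 20 tiles kept their direction without CpG-rich tiles. They were not the regions with the smallest share kept, which was 20.0%, and a region with fewer tiles had a more negative change. Region chr10:11000001-12000000 averaged 22.2% ± 0.206 at D12 and 73.1% ± 0.376 at D0, kept 30.4% and had a change of -1.42. Regions chr10:47000001-48000000 and chr13:87000001-88000000 had changes of -1.27 and -1.20, and kept 32.6% and 35.9%. The median region kept 36.1%. Without CpG-rich tiles the 3 changes were -1.06, -0.82 and -0.80, each still called. Their largest tile held 10.9 to 15.5% of the reads.

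Whole chromosomes hardly differed. The share kept by autosomes lay between 35.6% and 37.4%. The 3745 tiles on the X chromosome averaged 21.8% ± 0.0202 at D12 and 62.1% ± 0.138 at D0 and kept 35.1%, and the 289 on the Y chromosome averaged 24.8% ± 0.207 at D12 and 72.8% ± 0.0912 at D0 and kept 34.0%. The sex chromosomes were not part of the tests.

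On the scale of neighbouring tiles, the levels at D12 were alike only at short range. Between tiles 1 kb apart, r across replicates (1 tile read in replicate 1 and its neighbour in replicate 2) was 0.315 at D12 and 0.700 at D0, over 29397 pairs. At 2 kb it was 0.102 at D12 and 0.362 at D0, and at 10 kb 0.052 at D12 and 0.096 at D0. Among tiles at 60% or more at D0, where the D0 contrast between low and high tiles is absent, r at 1 kb was 0.298 at D12 and 0.061 at D0, over 12322 pairs. This choice bounds the D0 levels and not the D12 levels, so these 2 values give no contrast between the groups. Called tiles formed few long runs, as tiles with coverage are scattered: 79151 runs held 1 tile, and the longest held 8. That run, chr7:28446001-28454000, averaged 30.4% and 32.3% in the D12 libraries and 71.4% and 69.5% in the D0 libraries. The next, of 7 tiles each, included chr19:47635001-47642000, at 25.6% and 21.2% at D12 against 74.3% and 74.9% at D0, and chr11:94835001-94842000, at 11.3% and 18.9% at D12 against 63.1% and 62.1% at D0.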

How the data were processed

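Reduced representation bisulfite sequencing (RRBS) was analysed in the 2 D12 and the 2 D0 libraries of a series of 16. Per the labels' protocols, MspI-cut DNA was gap-filled with dATP, dCTP and dGTP, A-tailed, ligated to methylated adapters, converted with bisulfite and sequenced with reads of 150 bp. The submitters' processing notes name fastp 0.20.1, Bismark 0.23.0, Bowtie2, methylKit and the build GRCm39. The settings for trimming, mapping, filled-in cytosines, overlapping mates and duplicates were not given in the sources used here.

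The authors' deposited tables give, for each CpG and strand, coverage as a count of reads and freqC and freqT as percent of reads, per the file headers. No site with fewer than 10 reads is listed. Coverage times percent gave whole methylated reads at each site, within 0.005 percentage points, and these counts entered the tests.

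Sites had at least 10 reads in the 4 libraries, lay on chromosomes 1 to 19 and were pooled into 1-kb tiles with at least 3 sites. A tile's level is methylated reads over all reads. Sites of 1 tile, both strands of a CpG and tiles of 1 region share libraries and fragments and are not replicates. The test was edgeR 4.0.16 quasi-likelihood (R 4.3.3) on each tile's methylated and unmethylated counts. The model held 1 term per library and 1 methylation term per group, with a shared dispersion, and 2 residual degrees of freedom were left. For tiles this dispersion was 0.0720. It was 0.0257 without either D12 library and 0.117 without either D0 library. The test assumes an equal spread in both groups, which these values do not show. The effect of this on the calls was not tested. Calls needed a Benjamini-Hochberg adjusted p under 0.05 over all tiles and a difference of at least 10 percentage points. For 1-Mb regions with at least 10 tiles, methylated and unmethylated counts were each scaled to their own totals, so that the log2 odds change is relative to the pooled reads of the autosomes. Single values were compared by exact two-sided permutation over libraries. The scripts were tested on simulated counts.

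Median reads per tile were 259 and 231 at D12 and 369 and 229 at D0. No molecular identifiers were used. In clusters of listed CpGs 200 to 260 bases long, sites within reach of both mates had a median of 1.91 to 1.96 times the reads of sites at the cluster's ends, and sites within reach of 1 mate 1.0 times. If overlapping mates were counted separately there, which was not tested, 10 reads can stand for fewer fragments. Reads were not taken to be independent molecules. The labels do not say that replicates came from separate cultures, so p-values measure the spread between these libraries, which may be technical.

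Named tiles had at least 5 sites: the 5 largest falls and 5 largest rises among called tiles with no overlap between groups, and the 5 highest D12 levels among tiles at 80% or more at D0. Named regions were the 3 most positive and 3 most negative called changes among regions with at least 20 tiles, and the 3 longest runs of adjacent called tiles were also named. Members, classes and lists were chosen with earlier results of these data known. Alternatives varied the coverage minimum, site minimum, strand merging, difference threshold, coverage cap, CpG-rich threshold, site set, replicate block and libraries. A coverage minimum of 50, leaving out 3′ ends of CpG clusters, and centring on the median region were added after seeing the data. Gene positions, promoters and sequences were not analysed here, because the gene tables used here belong to another build.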

Additional observations from a re-analysis of the deposited data

How the results depend on the processing

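The direction of the global fall, and of each distance class against CpG-rich tiles, was the same under all alternatives run. The number of tiles called lower was 71192 of 87394 with at least 20 reads per site and 19748 of 23797 with 50, where fewer tiles were tested, and lay between 98780 and 114769 with 1 library left out. The number called higher was 853 with at least 20 reads, 73 with 50, 382 with a difference of at least 25 points and 639 with sites and libraries of all 16, and lay between 1487 and 3492 with 1 library left out, the highest values being 3142 without D12 replicate 1 and 3492 without D12 replicate 2. Leaving 1 library out leaves a lone library that is assumed to vary like the other group. With 50 reads, 447 regions lost more and 176 less, and centred on the median region 727 lost more and 772 less.

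By start level, from the lowest class to the highest, the share kept was 122, 41.2, 27.8, 26.1 and 31.3% with at least 20 reads, 89.7, 26.2, 21, 21.2 and 26.4% with 50, and 138, 63.5, 37.9, 30.6 and 31.1% without 3′ ends of clusters. With the class taken from D0 replicate 1 and the level from replicate 2, or the reverse, it was 123 or 124% in the lowest class, 36.4 or 36.5% in the highest and 56.8% at 20 to 40% in the first case. With 1 library left out it lay between 136 and 145% in the lowest class, between 57.6 and 58.7% at 20 to 40%, and between 35.8 and 36.2% in the highest. The cause of these shifts was not tested.

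No pairing by replicate number was seen over tiles, where the deviations of same-numbered libraries had an r of 0.0036. Noise from read counts also lowers this r, so it cannot tell whether same-numbered libraries share an origin. A fit with a replicate block called 111034 tiles lower and 2344 higher, and 1139 regions as losing more and 514 as losing less. Sites under 10 reads are not listed, and 2 libraries per group leave 2 residual degrees of freedom.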
